A study of Homo sapiens with 4 samples.

Results

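The 10 genes described here encode the transcription factors that set up and maintain the erythroid programme: GATA1, GATA2, KLF1, GFI1B, LMO2, TAL1, LYL1, MYB, ZFPM1 and BCL11A. They, and the lists of related genes below, were chosen by name with earlier results of these data known. The 14297 gene probes of the array carry 14272 gene names, and each of the 10 genes had 1 probe. K562 is a human erythroleukemia cell line. Cells were treated for 4 h with AC-1041, a thalidomide analog, and the control cells are called untreated in the sample labels and DMSO-treated in the study's methods. The labels give no dose. The study's methods list 10 μM for AC-1041, while its results state that an IC50 concentration was used. The study used 4 Agilent arrays with a pair of colours, and each array held treated and control RNA at once. Arrays 1 and 2 carried the treated RNA in Cy5, and arrays 3 and 4 carried it in Cy3. The methods describe replicate samples and a dye swap, but do not say whether the arrays hold separate cultures, so the p-values measure only the spread between arrays, which may be technical. Each value is a log2 ratio of treated over control cells, after background correction and loess normalization. RNA was taken from whole cultures, in which fewer cells of a kind and less RNA per cell cannot be told apart.

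In red cell precursors GATA1 binds DNA together with the basic helix-loop-helix factor TAL1, and LMO2 bridges the pair. ZFPM1, also called FOG1, is the cofactor of the GATA proteins, and KLF1 binds CACC boxes in globin and other red cell genes. GFI1B is a repressor that recruits histone demethylase and deacetylase complexes. GATA2 and MYB belong to the progenitor stage and normally decline as GATA1 takes over, LYL1 is the close relative of TAL1, and BCL11A represses the fetal globin genes.

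The erythroid lineage could be seen on the arrays. Besides the 10 genes, 5 markers of K562 identity (HBG1, HBE1, HBZ, TFRC and EPOR) passed the scanner's test against background in each channel of every array. The probe of GATA1, KLF1, GFI1B, LMO2, LYL1 and MYB was well above background in both channels of every array. GATA2 was so on arrays 3 and 4 alone. TAL1 and ZFPM1 fell short in the control channel of array 2. BCL11A was above background in neither channel of any array, so its ratios (-0.08, -0.01, 0.02 and -0.16 on arrays 1 to 4) carry no order and it was not tested. The MYB spot on array 1 was marked as an outlier by the scanner software and left out.

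Both dye orientations differed widely across the whole array, which bears on every value below. Over all tested probes, which share array and dyes and are not independent, Pearson's r of the log2 ratio was 0.81 for the Cy5 arrays and 0.94 for the Cy3 arrays. It lay between -0.29 and -0.12 for the pairs of opposite orientation. The values are therefore given for each orientation, and the dye term of the fit takes up what differs between them, so that standard errors and p-values rest on the spread within each pair of arrays. Negative control spots also scattered more on arrays 1 and 2, with an SD of 226 and 308 in Cy5, than on arrays 3 and 4, with 36.2 and 40.5. Orientation and array quality thus cannot be told apart.

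Of the 9 factors that could be tested, 7 were lower in treated cells and 0 were higher at an adjusted p under 0.05 (limma with terms for treatment and dye, Benjamini-Hochberg over 8852 probes). Among all tested probes 13.0% were lower and 24.3% higher by the same rule. Bright probes were lower more often: among the 5587 with both channels above background on all arrays, 19.2% were lower. All 6 factors tested under that filter were lower. No factor was higher at an unadjusted p under 0.05 either. The factors called lower were GFI1B, LMO2, MYB, KLF1, GATA2, GATA1 and TAL1. The median log2 ratio of the 9 factors was -0.67, against 0.02 for all tested probes. In a fit without the dye term, which counts the difference between orientations as error, 0 of 9 factors were called (limma, lowest adjusted p 0.067, for LMO2), with 6 lower at an unadjusted p under 0.05, as were 3.83% of all probes.

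**Figure D1:**
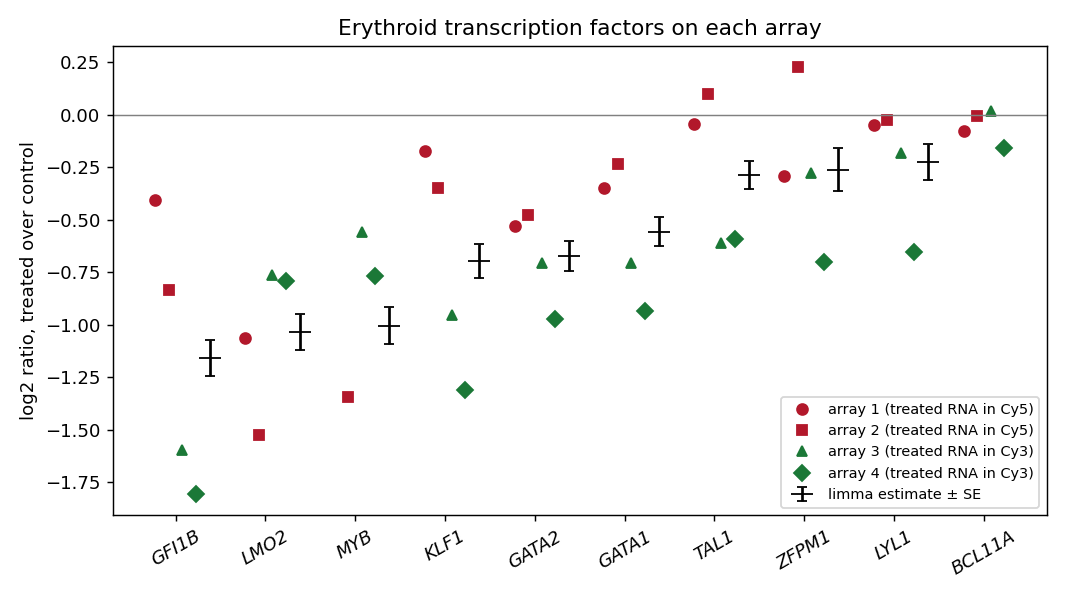
Log2 ratio of treated over control cells (y axis) for each of the 10 factors on each array, red where the treated RNA was in Cy5 and green where it was in Cy3, with the limma estimate and its standard error in black for the 9 tested factors. GFI1B, LMO2, KLF1, GATA2, GATA1 and LYL1 lie below 0 on all 4 arrays, and TAL1 and ZFPM1 cross 0 on array 2.

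GFI1B, the repressor, had the lowest estimate of the factors over both orientations, though MYB and LMO2 were lower on the Cy5 arrays, and GATA2 was lower with the scanner software's processed intensities (-1.36 against -1.22). Its log2 ratio was -0.40 and -0.83 on arrays 1 and 2 and -1.60 and -1.80 on arrays 3 and 4. All 4 arrays were thus below 0, and both arrays with the treated RNA in Cy3 were lower than both with it in Cy5. The estimate was -1.16 ± 0.65 (SD, n = 4 arrays), with a limma standard error of 0.086 and an adjusted p of 4.5e-05, and control cells had a 2.23-fold higher level. The normalized intensity ran from 5231 to 10435 in treated and from 13795 to 18248 in control channels, so the groups did not overlap. The orientations differed by 1.08 on the log2 scale (limma adjusted p of the dye term 0.0010), and GFI1B was past the threshold in each of them. The GFI1B probe is found at chr9:134856474-134856533 of hg18, on the plus strand.

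LMO2, which holds the GATA1 and TAL1 complex together without binding DNA itself, was lower by a similar amount. Its log2 ratio was -1.06 and -1.53 on the Cy5 arrays, and -0.76 and -0.79 on the Cy3 arrays. Here the lower values came from the Cy5 orientation, opposite to GFI1B. The estimate was -1.03 ± 0.35 (SD, n = 4), and limma gave an adjusted p of 7.55e-05. Control cells had a 2.05-fold higher level. Normalized intensities lay between 18112 and 21942 in treated and between 35942 and 52147 in control cells. The LMO2 probe is on chromosome 11 of hg18 (33836819 to 33836878).

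MYB, the progenitor factor, had a log2 ratio of -1.34 on array 2, -0.56 on array 3 and -0.77 on array 4. These 3 arrays all lay below 0, and the Cy5 orientation rests on 1 array. Its estimate, which weights both orientations equally, was -1.003 with a limma standard error of 0.089 and an adjusted p of 0.00019, a level 2.00-fold higher in control cells. Treated intensities of 27576 to 30885 did not overlap control intensities of 45402 to 70049. The probe is placed on chromosome 6 of hg18 from 135581916 to 135581975.

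The GATA factors both fell. For GATA1 the log2 ratio was -0.35 and -0.24 on arrays 1 and 2 and -0.71 and -0.93 on arrays 3 and 4, with an estimate of -0.56 ± 0.32 (SD, n = 4) and a limma adjusted p of 0.00054. For GATA2 it was -0.53 and -0.48, then -0.70 and -0.97, with an estimate of -0.67 ± 0.22 (SD) and a limma adjusted p of 0.00025. Both genes were below 0 on every array and past the threshold in each orientation. Their intensities did not overlap between treated and control channels, at 11273 to 15566 against 18327 to 21514 for GATA1 and at 418 to 590 against 603 to 1060 for GATA2. For GATA2 both channels of arrays 1 and 2 were not well above background, so its fall was measured on arrays 3 and 4 and its Cy5 values rest on dim spots. With Feature Extraction's processed intensities, whose background correction differs, its estimate was -1.36 (limma adjusted p = 0.018).

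The probes of GATA1, GATA2 and TAL1 are shown because their positions on hg18 are longer than the 60 bases of the probe, running over 763, 560 and 3889 bases, so that their bases are not contiguous in the genome. They lie at chrX:48535797-48536559 on the plus strand, chr3:129682795-129683354 on the minus strand and chr1:47458432-47462320 on the minus strand, and are written 5′ to 3′ in lower case as the array files give them:
GATA1 probe: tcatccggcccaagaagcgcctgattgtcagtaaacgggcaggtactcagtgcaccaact
GATA2 probe: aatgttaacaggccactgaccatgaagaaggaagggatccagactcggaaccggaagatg
TAL1 probe: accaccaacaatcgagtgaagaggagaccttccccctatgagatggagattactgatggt

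KLF1, the activator of the adult globin gene, had a log2 ratio of -0.17 and -0.35 on arrays 1 and 2 and of -0.95 and -1.31 on arrays 3 and 4. All 4 values were below 0 and those in the Cy3 orientation were the lower. The estimate was -0.70 ± 0.53 (SD, n = 4), at a limma adjusted p of 0.00034. Taken by orientation, the limma adjusted p was 0.093 on the Cy5 and 9.3e-05 on the Cy3 arrays. Treated intensities of 2807 to 5763 overlapped control intensities of 5606 to 7472. The KLF1 probe is on chromosome 19 of hg18, 12857267 to 12857326.

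TAL1, the DNA-binding partner of LMO2, was lower in one orientation and near 0 in the other. Its log2 ratio was -0.04 and 0.10 on arrays 1 and 2 and -0.61 and -0.59 on arrays 3 and 4. The estimate of -0.29 ± 0.37 (SD, n = 4) had a limma adjusted p of 0.011, and the dye term one of 0.0039. Leaving out array 3 (limma adjusted p = 0.089) or array 4 (0.095) ended the call, and with the processed intensities the estimate was -0.43 (limma adjusted p = 0.011). Normalized intensities overlapped, at 846 to 940 in treated and 872 to 1389 in control channels, and were highest in the control channels of arrays 3 and 4.

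LYL1, the relative of TAL1, and ZFPM1, the GATA cofactor, were not past the threshold. LYL1 had a log2 ratio of -0.05, -0.02, -0.18 and -0.65 on arrays 1 to 4, with a limma adjusted p of 0.069. ZFPM1 had -0.29, 0.23, -0.28 and -0.70, with an adjusted p of 0.080. Array 4 gave the lowest value of both. Treated and control intensities overlapped for both, running from 15605 to 18652 against 18083 to 24504 for LYL1 and from 1163 to 1555 against 1329 to 2120 for ZFPM1. Within the Cy3 orientation both were past the threshold, with a mean log2 ratio of -0.42 (limma adjusted p = 0.018) for LYL1 and -0.49 (limma adjusted p = 0.020) for ZFPM1. Their means in the Cy5 orientation were -0.04 and -0.03. The LYL1 probe is at chr19:13071359-13071418 on the minus strand, the ZFPM1 probe at chr16:87128607-87128666 on the plus strand and the BCL11A probe at chr2:60539940-60539999 on the minus strand (hg18). LYL1 crossed the threshold without array 1 (limma adjusted p = 0.045) or array 3 (0.046), and ZFPM1 without array 2 (0.0046). Without array 4 the estimates were -0.11 for LYL1 (0.497) and -0.16 for ZFPM1 (0.462). That of ZFPM1 was -0.13 without array 1 (0.225).

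**Figure D2:**
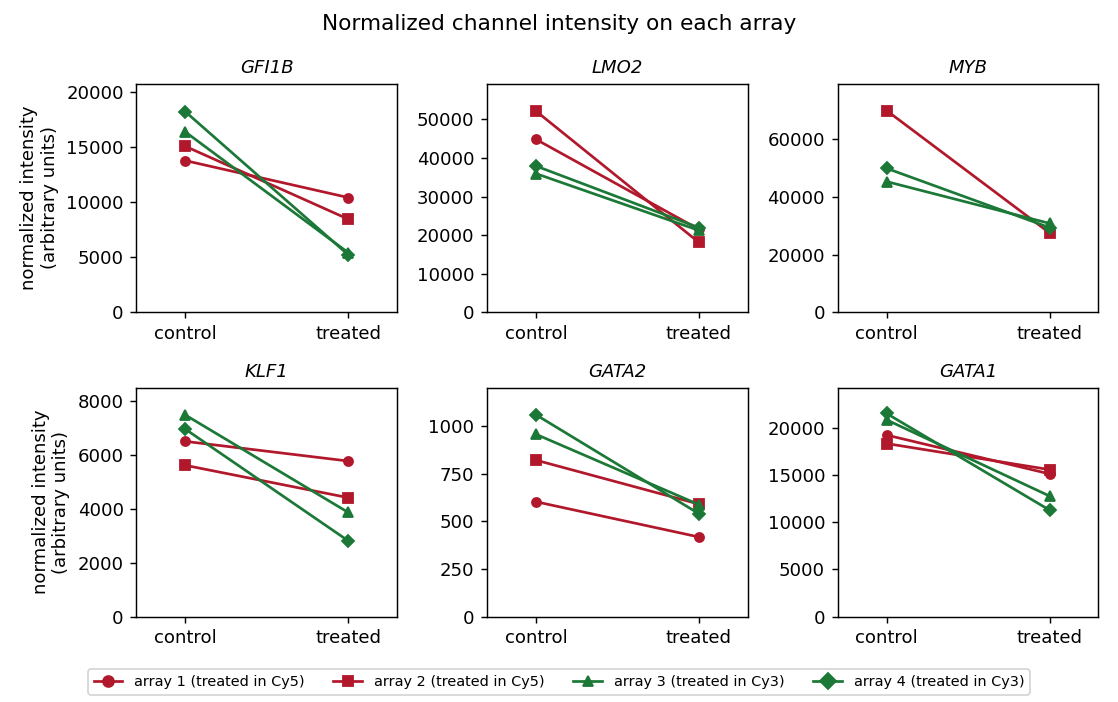
Normalized intensity (y axis, arbitrary units, starting at 0) in the control and the treated channel of each array, joined by a line per array, for the 6 factors with the largest falls. The treated channel is lower on every line, and treated and control values do not overlap for GFI1B, LMO2, MYB, GATA2 and GATA1.

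Within the orientations, 5 factors were lower on the Cy5 arrays (GFI1B, LMO2, MYB, GATA1 and GATA2) and 9 on the Cy3 arrays. Of all tested probes 20.9% were lower and 22.6% higher on the Cy5 arrays, and 24.6% lower and 33.3% higher on the Cy3 arrays. An orientation on its own still holds the dye effect of each probe. The 5 factors called in Cy5 were also called in Cy3, so 5 of 9 were lower in both, a state found for 1.89% of all tested probes. Of these, the Cy5 call of GATA2 comes from the dim spots described and that of MYB from 1 array. The Cy5 call of GATA1 was near the threshold (limma adjusted p = 0.043). With the processed intensities or with median centring, 4 factors in place of 5 were lower on the Cy5 arrays. The same 5 factors had treated intensities that did not overlap the control ones, as had 3.16% of all tested probes, but for GATA2 the values on either side of the gap come from the dim spots. Below 0 on all 4 arrays were 6 factors, against 8.29% of all tested probes. Median log2 ratios of the 9 factors were -0.29 in the Cy5 and -0.77 in the Cy3 orientation, where all probes had 0.03 and 0.04. A ratio lower than that of GFI1B was found for 0.0452% of tested probes, lower than that of LMO2 for 0.124%, MYB for 0.158%, KLF1 for 0.621%, GATA2 for 0.70% and GATA1 for 1.42%. For TAL1, ZFPM1 and LYL1 these shares were 7.37%, 9.15% and 12.02%.

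By the dye term of the fit, 6 of the 9 factors differed between orientations, as did 58.2% of all probes (limma, adjusted p under 0.05). Lower values in the Cy3 orientation were found for GATA1, KLF1, GFI1B and TAL1, and lower values in the Cy5 orientation for LMO2 and MYB. The sign of the difference was thus not shared by the factors. For GATA2, LYL1 and ZFPM1 the dye term missed the threshold, at adjusted p-values of 0.073, 0.085 and 0.088. A two-sided exact permutation test that turns the signs of the values of a gene can give no p below 0.125 with 4 arrays, or below 0.25 for MYB with 3, so none of the factors could reach 0.05 in it.

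**Figure D3:**
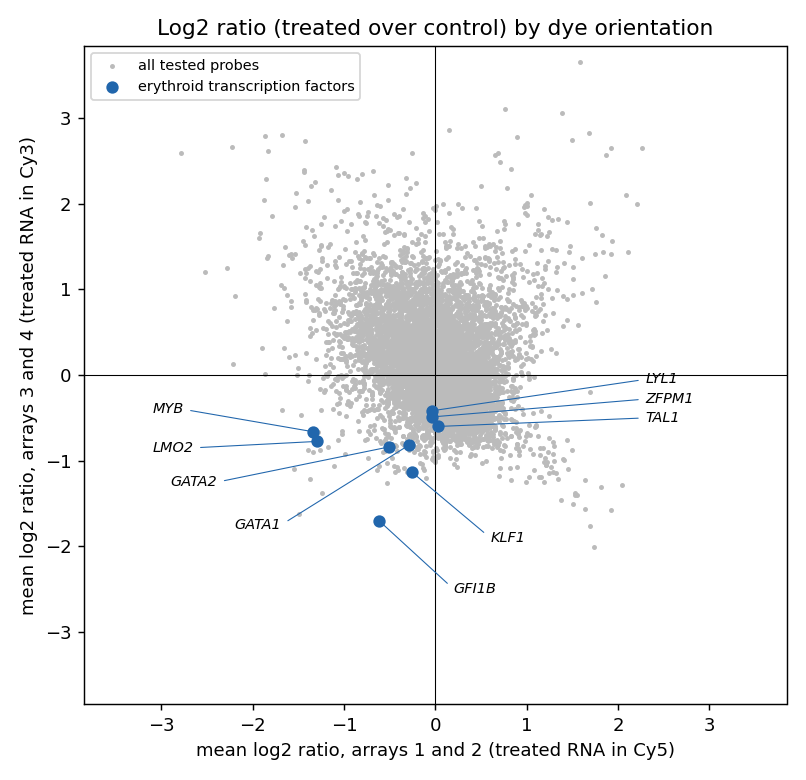
Mean log2 ratio of treated over control cells with the treated RNA in Cy5 (x axis) against that with the treated RNA in Cy3 (y axis), for all tested probes in grey and the 9 tested factors in blue. The factors lie at the lower left, below 0 on both axes, except TAL1, which is at 0.03 on the x axis.

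The start regions of the factors bear on how they are wired together, since GATA factors bind their own and each other's genes. Promoters could be matched in RefSeq (GRCh38.p14) for 9 of the 10 genes, with 16 start sites in all. In the 250 bases before each start, a GATA motif (the letters AGATAA, the form AGATAG, the form TGATAA and finally the form TGATAG, searched on both strands) was present at 4 of the 16 starts, or 25.0%, against 22.3% of 35116 promoters. These letters were therefore about as frequent at the factors as elsewhere. KLF1 held 2 motifs, at 66 to 61 and 13 to 8 bases before its start, while GFI1B, TAL1 and LYL1 each held 1. The E-box letters CAGATG, with the form CAGCTG that reads the same on both strands, occurred at 3 of the 16 starts, those of GFI1B and 1 of GATA2. The CACC box CCNCNCCC, whose matches can overlap one another, occurred at 12 starts, and AATCANNGC, a form of the GFI motif, at 1. Of all promoters 24.3%, 53.4% and 3.16% held these letters. A match shows only that the letters are there.

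Shown are the starts of GFI1B and MYB, matched among the 3 factors with the largest falls, and of KLF1, chosen after its GATA motifs were found, each as 250 bases 5′ to 3′ on the strand of the gene with GATA motifs in capitals. The positions on GRCh38.p14 are chr9:132945281-132945530 and chr9:132978444-132978693 on the plus strand for both GFI1B starts, chr6:135181058-135181307 on the plus strand for MYB and chr19:12887202-12887451 on the minus strand for KLF1:
GFI1B upstream start: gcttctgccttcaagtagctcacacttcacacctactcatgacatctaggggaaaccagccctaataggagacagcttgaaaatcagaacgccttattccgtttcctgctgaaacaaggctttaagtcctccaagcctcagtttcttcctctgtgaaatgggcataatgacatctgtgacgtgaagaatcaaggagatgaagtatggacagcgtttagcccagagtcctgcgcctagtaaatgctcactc
GFI1B downstream start: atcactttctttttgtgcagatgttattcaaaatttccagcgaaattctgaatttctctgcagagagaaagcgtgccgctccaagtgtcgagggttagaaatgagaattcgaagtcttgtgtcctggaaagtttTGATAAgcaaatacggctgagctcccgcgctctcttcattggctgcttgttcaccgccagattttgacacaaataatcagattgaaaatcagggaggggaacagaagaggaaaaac
MYB start: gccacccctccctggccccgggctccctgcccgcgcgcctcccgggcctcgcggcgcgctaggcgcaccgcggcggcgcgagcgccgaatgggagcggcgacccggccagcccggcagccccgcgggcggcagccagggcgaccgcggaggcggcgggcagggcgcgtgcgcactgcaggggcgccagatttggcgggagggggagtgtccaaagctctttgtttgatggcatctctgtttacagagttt
KLF1 start: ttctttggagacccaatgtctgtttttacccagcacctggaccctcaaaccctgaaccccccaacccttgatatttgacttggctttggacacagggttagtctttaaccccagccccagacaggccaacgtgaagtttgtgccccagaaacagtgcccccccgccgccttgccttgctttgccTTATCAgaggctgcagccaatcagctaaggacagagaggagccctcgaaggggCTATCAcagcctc

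Of 56 partner and corepressor genes, 51 had a probe and 36 were tested, with 12 lower (33.3%), 9 higher (25.0%) and 15 not past the threshold, and a median log2 ratio of -0.08. Of all probes 13.0% were lower and 24.3% higher, so the share of higher partners was that of the array. When both channels had to be above background on all arrays, 12 partners were lower, where 19.2% of such probes were. Of the lower partners 5, or 13.9% of those tested, were also below 0 on all 4 arrays, against 6.13% of all probes. Of the higher partners 6 were above 0 on all 4 arrays, a count for which no share over all probes was taken. CBFA2T3, also known as ETO2, the corepressor that sits in the TAL1 complex, had -0.59, -0.88, -0.87 and -1.07 on arrays 1 to 4 (limma adjusted p = 0.00012). HDAC2, a deacetylase of GFI1B and GATA1 complexes, was lower by a smaller amount, with an estimate of -0.42 ± 0.19 (SD, n = 4), and was not called without array 4 (limma adjusted p = 0.062). SSBP4 (-0.32, limma adjusted p = 0.013) and SSBP3 (-0.20, 0.042), which stabilise LDB1, and MBD3 (-0.26, 0.039) were also past the threshold. With median centring none of these 3 was (0.136, 0.239 and 0.330), and with the processed intensities SSBP3 and MBD3 were not (0.303 and 0.058).

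The largest rise in the list was that of MAFG, a small MAF protein and the DNA-binding partner of NFE2, with 0.53, 1.33, 1.32 and 1.29 on arrays 1 to 4 and an estimate of 1.12 (limma adjusted p = 0.00023). RCOR3 (0.64) and RCOR1 (0.25), cofactors of the demethylase KDM1A, rose, as did FOXO3 (0.62), EP300 (0.50) and LMO4 (0.45), a relative of LMO2. RCOR1 lost its call with the processed intensities (limma adjusted p = 0.053) and without array 3 (0.111) or array 4 (0.140). NFE2 itself, which stands in the list of targets too, had no value on array 1 and -1.24, -1.16 and -1.61 on the others. LDB1, the scaffold that LMO2 binds, had 0.06, 0.26, -0.59 and -0.75, so the orientations pointed in opposite directions. NFE2, LDB1 and KDM1A were singled out after their values were seen. Of these 36 genes 17, or 47.2%, differed between orientations, beside 58.2% of all probes. Without array 4 the number lower fell to 1, where 3.54% of all probes were lower, and without array 3 to 4, where 5.48% were. With median centring it was 4, where 6.73% of all probes were lower, and with the processed intensities 6, where 13.0% were.

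Among 68 genes listed as erythroid targets, not counting the factors themselves, 63 had a probe and 59 were tested for a change. Whether these factors regulate each of them was not tested. Lower were 30 of them, or 50.8%, beside 13.0% of all probes, and 4 were higher, with a median log2 ratio of -0.21. Those also below 0 on all 4 arrays numbered 14, or 23.7%, against 6.13% of all probes. When both channels had to be above background on all arrays, 27 targets were lower, where 19.2% of such probes were. AHSP, the chaperone of alpha globin, had -0.66, -0.38, -0.47 and -0.96 (limma adjusted p = 0.0013). CISH, a feedback inhibitor of cytokine signalling, had an estimate of -0.57, and GYPE, a glycophorin gene that resembles other members of its family closely enough for its probe to be uncertain, one of -0.52. CA1 (-0.36) and the mitochondrial iron carrier SLC25A37 (-0.35) were lower as well, but neither without array 3 (limma adjusted p = 0.086 and 0.074), nor CA1 without array 4 (0.059).

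Higher on all 4 arrays were SLC25A38, the mitochondrial glycine carrier, at 0.36 ± 0.14 (SD, n = 4; limma adjusted p = 0.0042), and the erythropoietin receptor EPOR at 0.22 ± 0.08 (limma adjusted p = 0.026). Both lost the call with the processed intensities (0.072 and 0.080) and without array 4 (0.076 and 0.185), and EPOR also without array 3 (0.135). The main K562 globins split by dye. HBG1, fetal gamma globin, had 1.41, 2.07, -1.84 and -2.17 on arrays 1 to 4, and HBE1, embryonic epsilon globin, had 1.72, 1.67, -1.71 and -1.81. Both reversed with the orientation and had estimates near 0 (-0.13 and -0.03, limma adjusted p of 0.375 and 0.710). HBZ, embryonic zeta globin, likewise changed sign, with 0.92, 1.07, -0.31 and -1.13. TFRC, the transferrin receptor, lay between -0.32 and 0.0023. Of the 59 targets 33, or 55.9%, differed between orientations, near the 58.2% of all probes. Without array 4 the number lower dropped to 8, without array 3 to 12, and with median centring in place of loess to 18, where 3.54%, 5.48% and 6.73% of all probes were lower. Without the dye term 0 targets and 0 partners were called in limma, with 10 targets and 4 partners lower and 1 target and 5 partners higher at an unadjusted p under 0.05, where 3.83% of all probes were lower and 10.4% higher.

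Few markers of other blood lineages could be tested, and their counts stand beside 13.0% lower and 24.3% higher of all probes. Of 15 megakaryocyte markers with a probe 7 were tested and 3 were lower, CD9 (-0.34), GP1BB (-0.31) and THBS1 (-0.26), while PF4, PPBP and ITGB3 were above background on no array. CD9 and THBS1 lost the call without array 4 (limma adjusted p = 0.083 and 0.217), THBS1 also without array 3 (0.066), and GP1BB lost it with the processed intensities (0.080). Of 17 myeloid markers 8 were tested and CEBPE alone was past the threshold, at 0.69 with 0.32, 0.52, 1.13 and 0.79 on arrays 1 to 4, while MPO, ELANE and CSF1R were above background nowhere. Of 12 lymphoid markers 5 were tested and 2 were lower, among them CD3D (-0.24), which was not called without array 2, 3 or 4 (limma adjusted p = 0.103, 0.072 and 0.336).

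**Figure D4:**
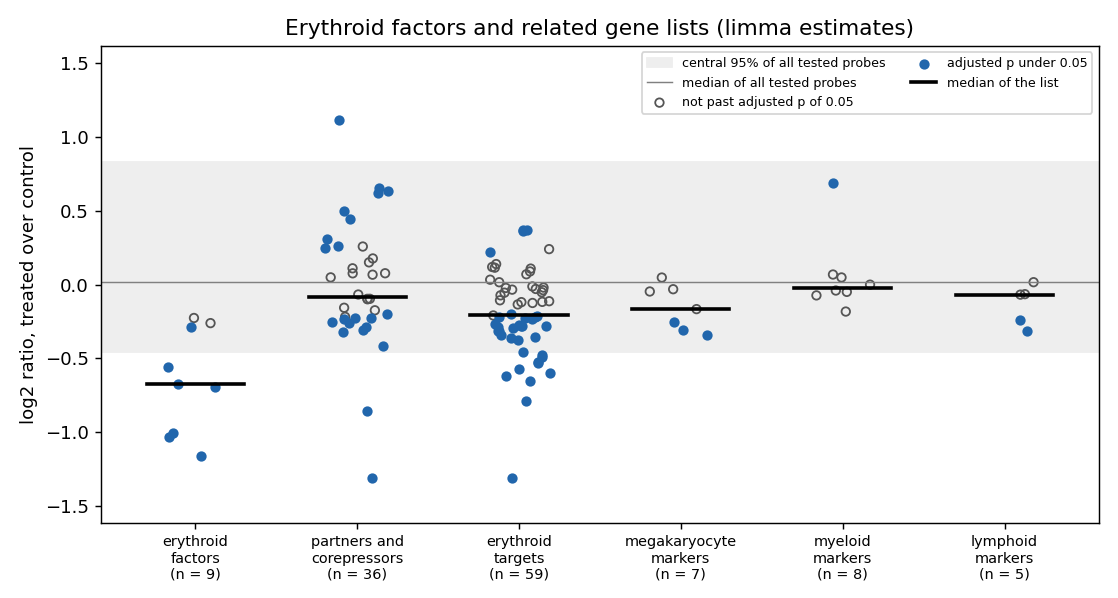
Limma log2 ratio of treated over control cells (y axis) for the 9 tested factors and the tested genes of each list, filled where the adjusted p was under 0.05, with the median of each list as a black bar and the central 95% of all tested probes, from -0.46 to 0.83, in grey. Of the factors, 6 lie below the grey band.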

How the data were processed

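The authors scanned the 4 two-colour arrays and deposited, from Feature Extraction, the intensity of each spot and its local background in both channels, together with processed intensities, a log10 ratio of Cy5 over Cy3 and its p-value, which was not used. A table deposited for the whole series gives log10 ratios too. They match those of the scanner within 0.001 for 99.9% to 100% of probes once the sign of arrays 3 and 4 is turned, which makes them treated over control. Its column medians are 0. No spot was saturated. All arrays were on 1 slide and scanned together, so no batch could be fitted.

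Background was corrected with normexp (offset 50). Control spots and spots marked as outliers had no weight in the loess (span 0.3) and were left out. A probe entered the limma 3.58.1 fit (R 4.3.3) when either channel was well above background on 2 or more arrays and at least 3 values covered both orientations. The fit was tested on simulated data. Normalized intensities were scaled between arrays by Aquantile. Members were matched by the name in the files. For the lists 12002 of 14297 probes were renamed through their accession in RefSeq (GRCh38.p14), and 2295 were not. Probe positions are those of hg18 in the files.

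The members and lists were chosen with earlier results of these data known. Named were all members, the K562 markers, up to 6 partners and up to 6 targets in each direction with the largest change past the threshold and 1 sign on all arrays, and up to 3 markers per other lineage and direction. Some genes that this rule names are not reported here. Where probes shared a gene of a list, the brightest stood for it. The number of arrays limits the precision.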

Additional observations from a re-analysis of the deposited data

Results flagged for a closer look

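MAFG, the small MAF partner of NFE2, had a single array apart from the rest. Array 1 gave a log2 ratio of 0.53, while the other arrays gave 1.33, 1.32 and 1.29. The distance from array 1 to its nearest neighbour made up 0.940 of the range, which is past Dixon's critical value. MAFG was the 1 gene past it among 32, and chance alone marks about 1 group in 20. On array 1 the scanner software marked 8.08% of gene spots as outliers, more than on any other array, and its part in the MAFG value was not tested.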

How the results depend on the processing

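The log2 ratio of the 9 tested factors reversed under none of the alternatives. The 7 called factors kept the call under an alternative 77 times and lost it 9 times, and the others came past the threshold 5 times and stayed short of it 20 times. Without the dye term the count of lower factors went from 7 to 0, that of all probes to 4 lower and 52 higher, and those of partners, targets and other blood markers to 0 in both directions. Leaving out 1 array at a time gave 5 to 8 lower factors, 3 to 5 on the Cy5 arrays, 6 to 9 on the Cy3 arrays, and 3 to 7 that differed between orientations. Without array 2, 3 or 4, 8 factors were tested, since MYB had too few values left, so its call was not rechecked this way. Over all probes it gave 283 to 1469 lower and 1008 to 2590 higher, the fewest without array 4. Likewise 1 to 11 partners were lower and 6 to 12 higher, 8 to 29 targets lower and 1 to 5 higher, and 0 to 7 other blood markers lower. With the authors' table of the series, 3 factors were lower on the Cy5 arrays, 3 differed between orientations, 6 partners were lower, 1 target was higher and 3 other markers were lower. With the processed intensities, 6 partners were lower and 1 target higher, where 13.0% of all probes were lower. Median centring gave 596 lower probes, 4 lower partners, 18 lower targets and 2 lower other markers. It moved the share of higher among called probes from 65.2% to 79.9%. Requiring both channels above background on all arrays left 1342 higher probes and 0 higher other markers, and no filter gave 2 higher other markers. At an adjusted p under 0.01, 468 probes were lower, 1353 were higher and 3 factors differed between orientations. The cause was not tested. TAL1 lost its call without array 3, without array 4 and without the dye term. LYL1 came past the threshold with both channels above background (adjusted p = 0.036) and with an intensity trend (0.049), its range being 0.036 to 0.592. Each array already sets treated against control RNA, so the fit is paired by array. No further pairing could be fitted, since the labels hold a single group. Signals near background, as for GATA2 on arrays 1 and 2 and BCL11A on all, limit what can be read.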
